A study of Homo sapiens with 6 samples.

Results

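Cleavage and polyadenylation of 7 core circadian clock genes, CLOCK, ARNTL, PER1, PER2, CRY1, CRY2 and NR1D2, were examined in HEK293 cells, a human embryonic kidney line, after siRNA against each of 3 subunits of cleavage factor Im. Each gene was taken as a fixed strand-specific window of the hg19 genome. The 7 windows held 15 of the 49695 nuclear poly(A) sites called in the whole series, with 6 sites in CLOCK, 3 in PER1, 3 in NR1D2, 1 each in ARNTL, CRY1 and CRY2, and 0 in PER2. The genes were chosen by their place in the clock after the proximal shares of PER1 in these same libraries were known, so the values are a description and no p-value is given. The 3' ends of transcripts were counted by A-seq, in which poly(A) RNA is fragmented and reverse transcription is primed at the start of the poly(A) tail. Each read was taken to mark a cleavage position.

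Each group was 1 library. RNA was fragmented with RNase I for the CF Im68 siRNA library and for a scrambled siRNA library. Alkaline hydrolysis was used for the other 4 libraries, made with CF Im25 siRNA, with CF Im59 siRNA, with scrambled siRNA and without siRNA. The scrambled siRNA was scrambled-A in both cases, the CF Im25 and CF Im59 siRNAs were Ambion products and the CF Im68 siRNA was a Dharmacon duplex. Cells given siRNA by RNAiMAX transfection were collected 3 days later. CF Im68 siRNA was set against scrambled siRNA with RNase I, and CF Im25 and CF Im59 siRNA against scrambled siRNA with alkaline hydrolysis. Library totals were between 5351980 reads (scrambled siRNA, RNase I) and 18183644 reads (no siRNA), and the 7 windows together held 632 to 2176 reads per library. With 1 library per group, no difference could be set against a spread between replicates. All intervals are 95% and cover the counting error of reads only. Copies made by PCR are not independent molecules, so the intervals can be too narrow. Loss of each target was not analysed here. Fewer molecules per cell and fewer cells with the transcript cannot be told apart in such bulk samples.

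The circadian clock is a feedback loop of transcription. CLOCK and ARNTL (also named BMAL1) form a dimer that activates the PER and CRY genes, the PER and CRY proteins inhibit that dimer, and the nuclear receptor NR1D2 (REV-ERB beta) represses ARNTL. Cleavage factor Im binds UGUA motifs in nascent RNA near poly(A) sites and takes part in choosing among the sites of a gene. The chosen site sets how much 3' untranslated sequence a transcript carries.

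Where a window had more than 1 main site, the proximal share is the part of the reads at its 2 most used sites, in percent, that ended at the first of them. A shift was called at a change of at least 20 percentage points, with at least 50 reads at the 2 sites in both libraries and an interval of the difference without 0. CLOCK, PER1 and NR1D2 had such a pair of sites. Sites and pairs were chosen over all 6 libraries, the compared ones included. A site can thus enter through the library in which it was high. Total reads of a window are given as CPM, the count scaled to the library's reads at nuclear sites. The rule for totals asked for a ratio of 2-fold either way, 50 reads or more in 1 library of the comparison and an interval that left out 1.

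CLOCK, the DNA-binding partner of ARNTL, had read ends at 200 positions, and 57.4% of its 1476 reads lay at 6 called sites. The 2 most used in the mean over libraries were on the minus strand of chromosome 4, 6922 nt apart. They were at 56300994 (proximal, 11.9% of the window) and 56294072 (distal, 16.0%). The proximal site held 59.3% of the window after CF Im68 siRNA and 0% to 9.42% in the other libraries. Its place in the pair thus rests mainly on the CF Im68 library, so the CF Im68 differences at this site only describe it. GENCODE release 29 annotates CLOCK transcripts that end 6920 nt apart, with 592 nt after the stop codon in CLOCK-202 and 7512 nt in CLOCK-201. The sites were linked to these transcripts by spacing alone, since the annotation is of another genome build. The last 30 bases of both are shown because they are the ends compared here, with a poly(A) signal (AATAAA or ATTAAA) in capitals where 1 was found in them.
CLOCK-202 (proximal end): tatgtctagataaaaggagagaaagcaaaa
CLOCK-201 (distal end): gactATTAAAtattttaagatcactatcaa
Neither hexamer was found in the last 30 bases of CLOCK-202. Over the last 40 bases, 54.3% of 48051 annotated coding ends hold AATAAA or ATTAAA on the transcript strand. That share was taken over a longer stretch than the 30 bases read for CLOCK-202. The letters TGTA, the DNA form of the cleavage factor Im motif, occurred 3 times in the last 100 bases of CLOCK-202 and 1 time in those of CLOCK-201, and 45.8% of the annotated ends hold them at least 1 time. AATAAA alone was in 43.7% and ATTAAA alone in 12.9% of the ends.

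The proximal CLOCK site was used mainly after CF Im68 and CF Im25 siRNA. It had 191 reads after CF Im68 siRNA and 3 with scrambled siRNA in the RNase I libraries. Among alkaline libraries it had 21 reads after CF Im25 siRNA, 2 after CF Im59 siRNA, 0 with scrambled siRNA and 0 without siRNA. The proximal share was 97.4% of 196 reads after CF Im68 siRNA, against 14.3% of 21 reads with scrambled siRNA (difference 83.2 points, interval 62.6 to 92.6). It was 61.8% of 34 reads after CF Im25 siRNA, against 0% of 55 reads with scrambled siRNA (difference 61.8 points, interval 43.8 to 76.1). With scrambled siRNA the exact interval reaches 6.49% and 3 reads would be 5.45%. Those 34 reads were a small part of the 223 CLOCK reads after CF Im25 siRNA. The proximal site held 9.42% of that window, and a site 18217 nt upstream of the distal one held 10.3%. Both differences had under 50 reads in a library and were therefore not eligible for a call. Both also depended on the choice of sites: with all called sites upstream of the distal one counted together, the difference was 19.0 points for CF Im68 siRNA, not a call, and 28.3 points for CF Im25 siRNA, a call. After CF Im59 siRNA the share was 1.98%, with 2 reads at the proximal and 99 at the distal site, a difference of 1.98 points with an interval of -4.70 to 6.93, or -11.5 points with all upstream sites counted.

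In CPM the proximal CLOCK site stood at 17.4 after CF Im68 siRNA and 0.640 with scrambled siRNA (27.2-fold higher, interval 9.18 to 133, with 3 reads in the control). After CF Im25 siRNA its 21 reads stood, in CPM, 6.28-fold above a floor of 3 reads in the scrambled siRNA library, which had 0 reads there. That value is not a lower limit, and the exact interval of the ratio began at 4.67. The distal site was lower in both. It had 0.456 CPM after CF Im68 siRNA against 3.84 CPM with scrambled siRNA (8.41-fold lower, interval 3.01 to 28.99), and 1.34 CPM after CF Im25 siRNA against 6.34 CPM with scrambled siRNA (4.71-fold lower, interval 2.54 to 9.41). After CF Im59 siRNA the distal site had 8.59 CPM, against 6.34 CPM with scrambled siRNA (ratio 1.35, interval 0.965 to 1.92). The alkaline controls themselves differed at the distal site, with a ratio of scrambled to no siRNA of 2.10 (interval 1.40 to 3.14). Against no siRNA, at 3.02 CPM, the distal site was 2.25-fold lower after CF Im25 siRNA (interval 1.204 to 4.51) and had a ratio of 2.84 after CF Im59 siRNA (interval 2.00 to 4.07).

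The other CLOCK sites between these ends were also low after CF Im68 siRNA. The site 4588 nt upstream of the distal one had 1 read after CF Im68 siRNA and 22 reads with scrambled siRNA in the RNase I libraries (ratio 0.0194, interval 0.000471 to 0.120). Its reads in the alkaline libraries were 14 after CF Im25 siRNA, 34 after CF Im59 siRNA, 35 with scrambled siRNA and 7 without siRNA, so the alkaline controls themselves differed, at 4.03 CPM with scrambled siRNA and 0.423 CPM without siRNA. The site 140 nt upstream of the distal one had 8 reads after CF Im68 siRNA and 29 with scrambled siRNA (8.47-fold lower in CPM, interval 3.78 to 21.4). A site 18217 nt upstream does not lie between these ends. It had 2 reads after CF Im68 siRNA and 3 with scrambled siRNA (ratio 0.285, interval 0.0238 to 2.49), too few to show a difference. It had 23 reads after CF Im25 siRNA, 28 after CF Im59 siRNA, 20 with scrambled siRNA and 39 without siRNA. The sixth site, 107044 nt upstream, held 4.73% of the window in the mean over libraries. Of all CLOCK reads, 29.8% lay outside called sites after CF Im68 siRNA and 40.1% to 57.4% in the other 5 libraries.

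**Figure D1:**
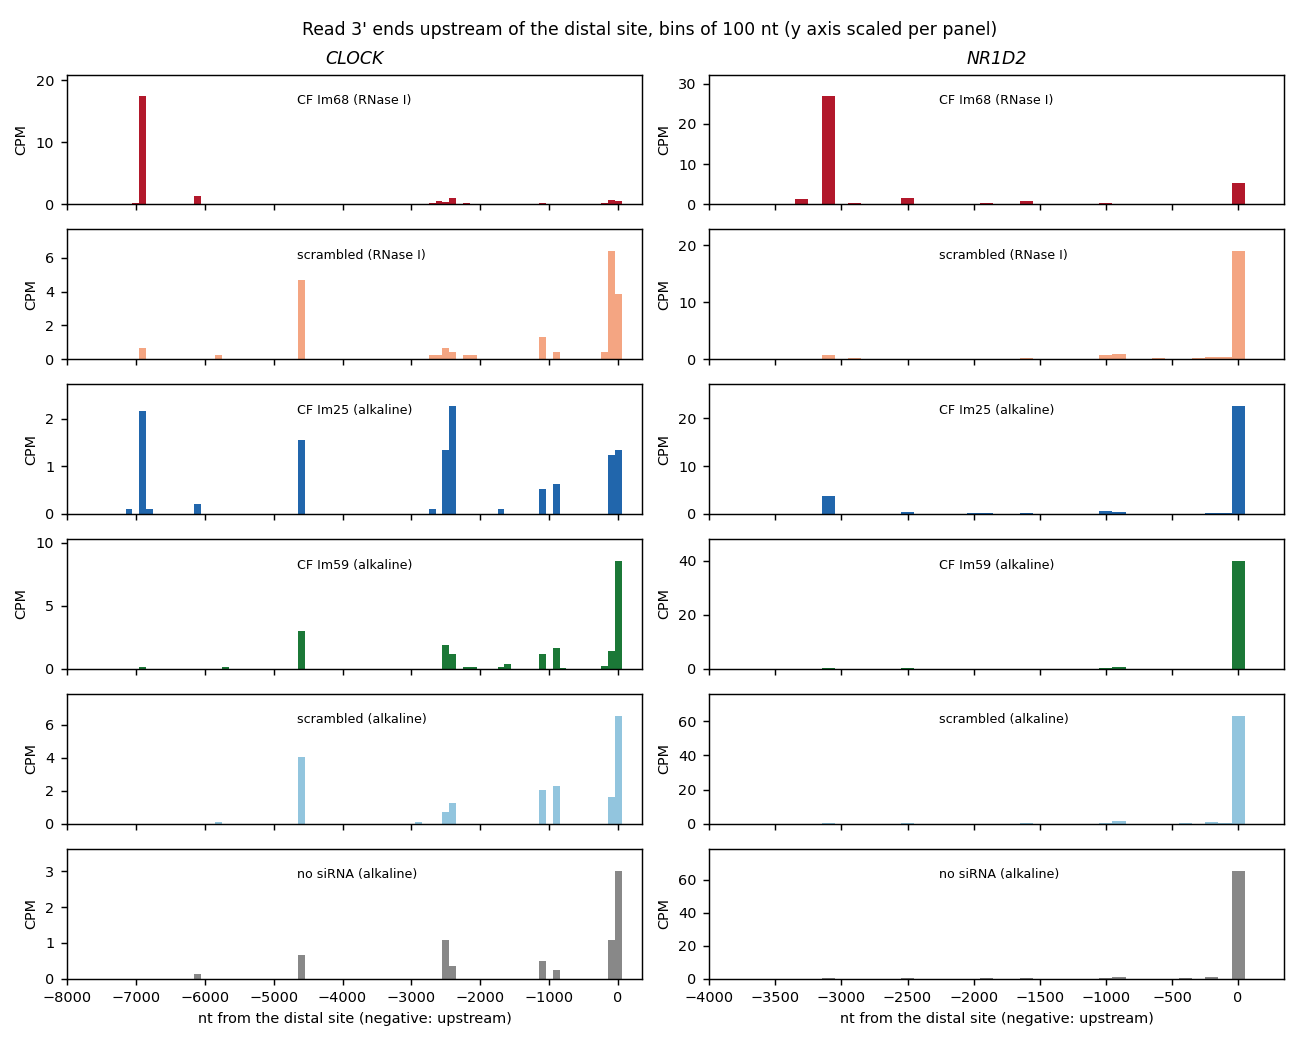
Read 3' ends of CLOCK (left) and NR1D2 (right) by distance from the distal site in nt, in bins of 100 nt and in CPM, 1 row per library with its own y axis. The CF Im68 siRNA row has its highest bin at the proximal site of both genes (CLOCK 6922 nt and NR1D2 3072 nt upstream), and the scrambled siRNA and no siRNA rows have little there.

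Total CLOCK reads differed by less than 2-fold between each siRNA library and its control. They came to 29.4 CPM after CF Im68 siRNA and 30.3 CPM with scrambled siRNA in the RNase I libraries. With alkaline hydrolysis they came to 23.1 CPM after CF Im25 siRNA, 28.7 CPM after CF Im59 siRNA, 25.2 CPM with scrambled siRNA and 14.4 CPM without siRNA. The no siRNA library was the low 1 of the 6, and the ratio of scrambled siRNA to no siRNA was 1.75 (interval 1.45 to 2.11). The CLOCK total after CF Im68 siRNA was thus close to its control while its reads lay mainly at the proximal end.

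ARNTL, which pairs with CLOCK, was a low-count gene with 12 to 41 reads per library, so none of its comparisons reached 50 reads. Its totals were 2.74 CPM after CF Im68 siRNA and 2.56 CPM with scrambled siRNA in the RNase I libraries, and 3.31 CPM after CF Im25 siRNA, 2.08 CPM after CF Im59 siRNA, 3.46 CPM with scrambled siRNA and 2.48 CPM without siRNA in the alkaline libraries. All 5 ratios between compared libraries had intervals that included 1. The called site, at 13408811 on the plus strand of chromosome 11, held 15 of 30 reads after CF Im68 siRNA and 1 of 12 with scrambled siRNA, and 27 of 32 after CF Im25 siRNA, 18 of 24 after CF Im59 siRNA, 14 of 30 with scrambled siRNA and 21 of 41 without siRNA. The highest nucleotide of this site lay 23 nt further upstream in both RNase I libraries than in the 4 alkaline ones, with 1 read behind it for scrambled siRNA.

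PER1, a repressor of the CLOCK and ARNTL dimer, had 3 sites on the minus strand of chromosome 17, at 8048660, 8043790 (proximal of the main pair) and 8040093 (distal), the last 2 lying 3697 nt apart. No pair of annotated PER1 ends was within 25 nt of that spacing (the nearest was 3791 nt). The next genes on the downstream side in RefSeq are the tRNA genes TRT-AGT5-1 and TRS-CGA1-1, and the next GENCODE gene on the same strand is HES7. GENCODE coding transcripts of PER1 end 596 nt (PER1-201), 529 nt (PER1-202), 591 nt (PER1-211) and 16 nt (PER1-215) after the stop codon. The called sites were not placed against the stop codon, since the annotation is of another genome build. Whether the reads at 8040093 belong to PER1 transcripts was not tested, and no sequence is shown for these sites. The name distal site below refers to its position in the window only.

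The proximal share of PER1 was higher after CF Im59 and CF Im25 siRNA than with scrambled siRNA, but the scrambled siRNA library was itself the low 1 among all 6. The share was 98.6% of 142 reads after CF Im68 siRNA and 90.0% of 70 reads with scrambled siRNA in the RNase I libraries. In the alkaline libraries it was 61.9% of 147 reads after CF Im25 siRNA, 70.5% of 173 after CF Im59 siRNA, 19.2% of 151 with scrambled siRNA and 56.6% of 189 without siRNA. The exact binomial interval with scrambled siRNA, 13.3 to 26.4%, did not overlap those of CF Im25 siRNA (53.5 to 69.8%), CF Im59 siRNA (63.1 to 77.2%) or no siRNA (49.2 to 63.8%). The intervals of CF Im25 siRNA and of no siRNA overlapped.

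Against scrambled siRNA, PER1 moved by 42.7 points after CF Im25 siRNA (interval 32.0 to 52.0) and by 51.3 points after CF Im59 siRNA (interval 41.3 to 59.7). It was the 1 clock gene called after CF Im25 siRNA, of 2 tested, where 18.3% of 6702 pairs in the series were called proximal and 2.81% distal. It was also the 1 called after CF Im59 siRNA, of 3 tested, where 2.53% of 6889 pairs were called proximal and 4.76% distal. In the CF Im59 comparison 1 of the 6889 pairs had a larger rise than PER1, and in the CF Im25 comparison 247 of 6702 did. Against no siRNA, the differences were 5.29 points after CF Im25 siRNA (interval -5.30 to 15.6) and 13.9 points after CF Im59 siRNA (interval 3.97 to 23.4). No clock gene passed the rule there, where 20.4% of 7209 pairs after CF Im25 siRNA and 1.62% of 7489 pairs after CF Im59 siRNA were called proximal, and 1.96% and 2.08% distal.

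The 2 alkaline controls differed at PER1 by -37.4 points, scrambled siRNA minus no siRNA (interval -46.2 to -27.4). This was a distal call for 1 of the 3 clock genes tested, against a background of 1.21% distal and 2.52% proximal calls among 7177 pairs, and 5 pairs had a larger fall. Of 4779 pairs with at least 50 reads in every library, 664 (13.9%) had their lowest share with scrambled siRNA and alkaline hydrolysis. PER1 was the 1 pair among them whose gap to the next library reached 37.4 points, a threshold that is PER1's own gap. The PER1 shares were known when the genes were chosen. This rank, and the ranks of its share changes, therefore only describe PER1 and test nothing. The CF Im25 and CF Im59 comparisons share that scrambled siRNA library, so their PER1 values are not separate observations.

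The fragmentation methods also differed at PER1, and here method and library cannot be told apart. With scrambled siRNA the share was 70.8 points higher with RNase I than with alkaline hydrolysis (interval 59.2 to 78.3), a call for 1 of 2 clock genes tested, where 24.7% of 5014 pairs were called proximal and 21.1% distal. Within the RNase I libraries PER1 differed by 8.59 points after CF Im68 siRNA (interval 2.38 to 17.9). That was under 20 points, and with 90.0% in the control no more than 10 points were left above it.

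In CPM, both main sites of the PER1 window differed between libraries. The proximal site had 12.8 CPM after CF Im68 siRNA and 13.4 CPM with scrambled siRNA in the RNase I libraries, and 9.41 CPM after CF Im25 siRNA, 10.6 CPM after CF Im59 siRNA, 3.34 CPM with scrambled siRNA and 6.47 CPM without siRNA in the alkaline ones. The distal site had 0.183 CPM after CF Im68 siRNA and 1.49 CPM with scrambled siRNA in the RNase I libraries, and 5.79 CPM after CF Im25 siRNA, 4.42 CPM after CF Im59 siRNA, 14.1 CPM with scrambled siRNA and 4.96 CPM without siRNA in the alkaline ones. Scrambled siRNA thus had the lowest proximal and the highest distal value of the alkaline libraries. The distal site was 2.43-fold lower after CF Im25 siRNA (interval 1.76 to 3.39) and 3.18-fold lower after CF Im59 siRNA (interval 2.27 to 4.50) than with scrambled siRNA, while against no siRNA the ratios were 1.17 (interval 0.816 to 1.66) and 0.892 (interval 0.616 to 1.28).

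The ends were spread differently over the 3 PER1 sites. At the distal site, 86.3% to 91.1% of the reads of the 4 alkaline libraries ended at 1 nucleotide. At the proximal site the highest nucleotide held 31.7% to 48.4% of the reads, over 6 to 12 positions. That nucleotide was 8043790 in the 4 alkaline libraries and lay 9 nt upstream of it in both RNase I libraries. At the site 8567 nt upstream of the distal one, all 25 reads after CF Im59 siRNA and all 35 without siRNA ended at 1 nucleotide, while the 6 reads after CF Im68 siRNA lay at 3 positions. The upstream sites of CLOCK 18217 nt and of NR1D2 21352 nt before their distal sites were as narrow, with 92.3% to 100% and 90.5% to 100% of the reads at 1 nucleotide.

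**Figure D2:**
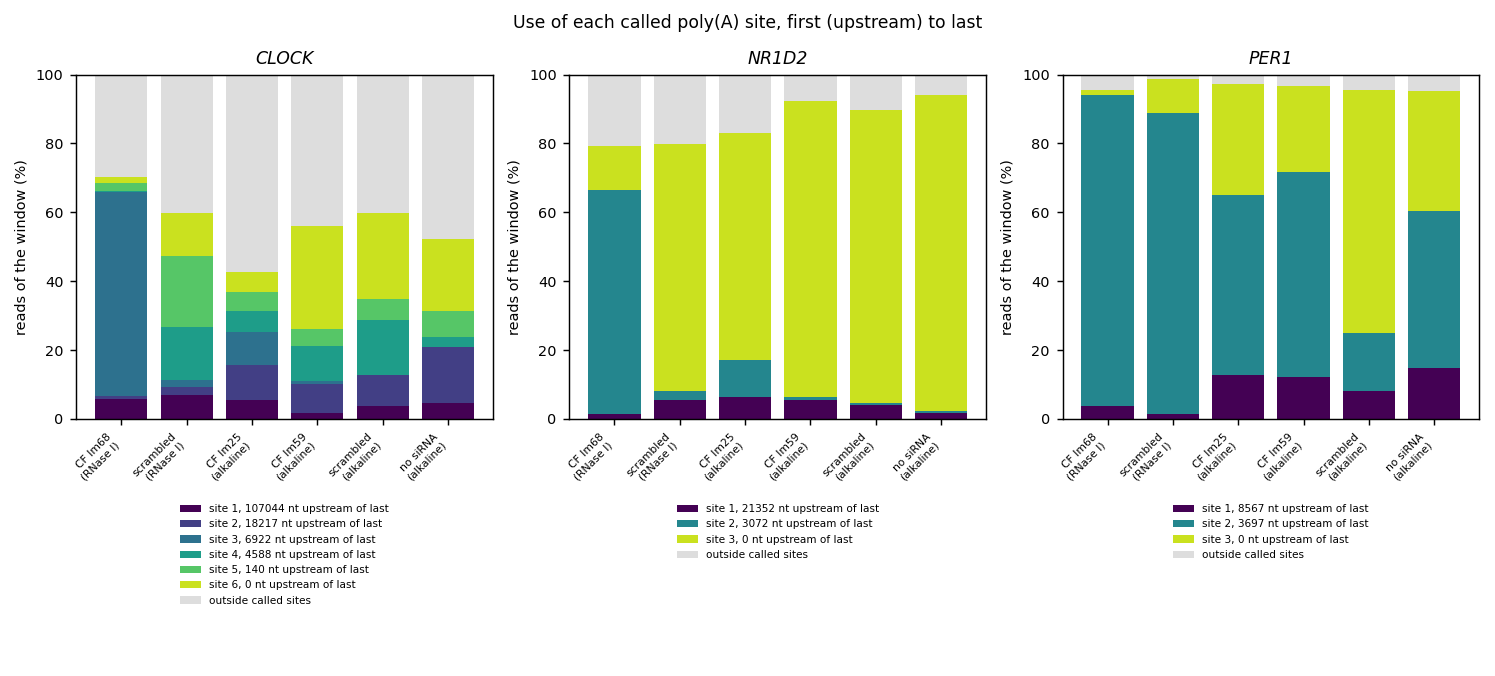
Share of each window's reads (%) at its called sites, from the most upstream (dark) to the last (yellow), with reads outside called sites in grey, for CLOCK, NR1D2 and PER1 in 1 bar per library. The last PER1 site took 70.5% of the window with scrambled siRNA in the alkaline library and 24.9% to 34.9% in the other alkaline libraries. The last NR1D2 site took 12.8% after CF Im68 siRNA and 71.8% with scrambled siRNA in the RNase I libraries.

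Total reads of the PER1 window, those at 8040093 included, stayed within a narrow range, and no comparison reached 2-fold. They were 14.1 CPM after CF Im68 siRNA and 15.4 CPM with scrambled siRNA, and 18.0 CPM after CF Im25 siRNA, 17.8 CPM after CF Im59 siRNA, 19.9 CPM with scrambled siRNA and 14.2 CPM without siRNA. The site at 8040093 held 1.29% of the window after CF Im68 siRNA and 9.72% with scrambled siRNA in the RNase I libraries. In the alkaline libraries it held 32.2% after CF Im25 siRNA, 24.9% after CF Im59 siRNA, 70.5% with scrambled siRNA and 34.9% without siRNA. The narrow range thus depends on counting that site, and totals without it were not compared. The site 8567 nt upstream of the distal one held 3.87% of the window after CF Im68 siRNA and 1.39% with scrambled siRNA in the RNase I libraries, and 12.6% after CF Im25 siRNA, 12.2% after CF Im59 siRNA, 8.09% with scrambled siRNA and 14.9% without siRNA. The mean read at a called PER1 site lay 3844 nt upstream of the distal site after CF Im68 siRNA and 3401 nt with scrambled siRNA. In the alkaline libraries that distance was 3106 nt after CF Im25 siRNA, 3360 nt after CF Im59 siRNA, 1377 nt with scrambled siRNA and 3105 nt without siRNA.

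The pairs of sites whose shares over the 6 libraries were most like those of PER1 were found among 4778 others, by the mean absolute difference. The closest was a chromosome 15 pair on the minus strand, 101906026 and 101902180 (7.99 points). The next were on the minus strand of chromosome 17 at 17715393 and 17714664 (8.59 points) and on the plus strand of chromosome 1 at 153617947 and 153618055 (8.72 points). With scrambled siRNA and alkaline hydrolysis these 3 pairs stood at 35.1%, 52.3% and 44.3%, all above the 19.2% of PER1.

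PER2, a paralogue of PER1 with the same repressor role, was near the limit of detection. Its window held 20 reads after CF Im68 siRNA and 3 with scrambled siRNA in the RNase I libraries, and 10 after CF Im25 siRNA, 4 after CF Im59 siRNA, 19 with scrambled siRNA and 14 without siRNA. The 70 reads lay at 35 positions and none reached the level of a called site. The ratio for CF Im68 siRNA was 2.85 (interval 0.846 to 15.0). PER2 stood 6.31-fold lower after CF Im59 siRNA than with scrambled siRNA (interval 2.10 to 25.5) and 2.44-fold lower than without siRNA (interval 0.766 to 10.2), with too few reads for a call.

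CRY1, which represses together with the PER proteins, was cleaved at 1 called site, at 107385145 on the minus strand of chromosome 12. This site held 90.4% to 98.1% of the window's reads in the 6 libraries, and its highest nucleotide held 54.7% to 61.1% of the site's reads. Totals were 48.9 CPM after CF Im68 siRNA and 49.9 CPM with scrambled siRNA in the RNase I libraries (ratio 0.980, interval 0.839 to 1.148). In the alkaline libraries they were 29.1 CPM after CF Im25 siRNA, 20.1 CPM after CF Im59 siRNA, 32.5 CPM with scrambled siRNA and 25.2 CPM without siRNA. The CF Im59 library was the lowest, 1.61-fold below scrambled siRNA (interval 1.35 to 1.93) and 1.25-fold below no siRNA (interval 1.06 to 1.48). Neither reached 2-fold.

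CRY2, the paralogue of CRY1, had 1 called site at 45904795 on the plus strand of chromosome 11. Its totals were 9.31 CPM after CF Im68 siRNA and 9.60 CPM with scrambled siRNA in the RNase I libraries, and 5.17 CPM after CF Im25 siRNA, 3.82 CPM after CF Im59 siRNA, 2.42 CPM with scrambled siRNA and 2.78 CPM without siRNA. Both RNase I libraries were above all 4 alkaline ones. After CF Im25 siRNA CRY2 was called higher than with scrambled siRNA, with 50 against 21 reads (ratio 2.14, interval 1.26 to 3.75), in a comparison where 13.1% of 14983 units of neighbouring sites in the series were called higher and 12.1% lower. With only reads at the called site (33 against 12) the ratio was 2.47 (interval 1.24 to 5.25), and CRY2 then had under 50 reads and was not eligible for a call. The same held with libraries thinned to the smallest, at a log2 ratio of 0.82 against 1.10 unthinned. Against no siRNA the ratio was 1.86 (interval 1.22 to 2.84) and no call was made. A further position, 4323 nt upstream, was a site only at a minimum of 0.5 CPM and had 2 reads after CF Im68 siRNA and 0 with scrambled siRNA in the RNase I libraries. In the alkaline libraries it had 12 reads after CF Im25 siRNA, 9 after CF Im59 siRNA, 8 with scrambled siRNA and 13 without siRNA.

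**Figure D3:**
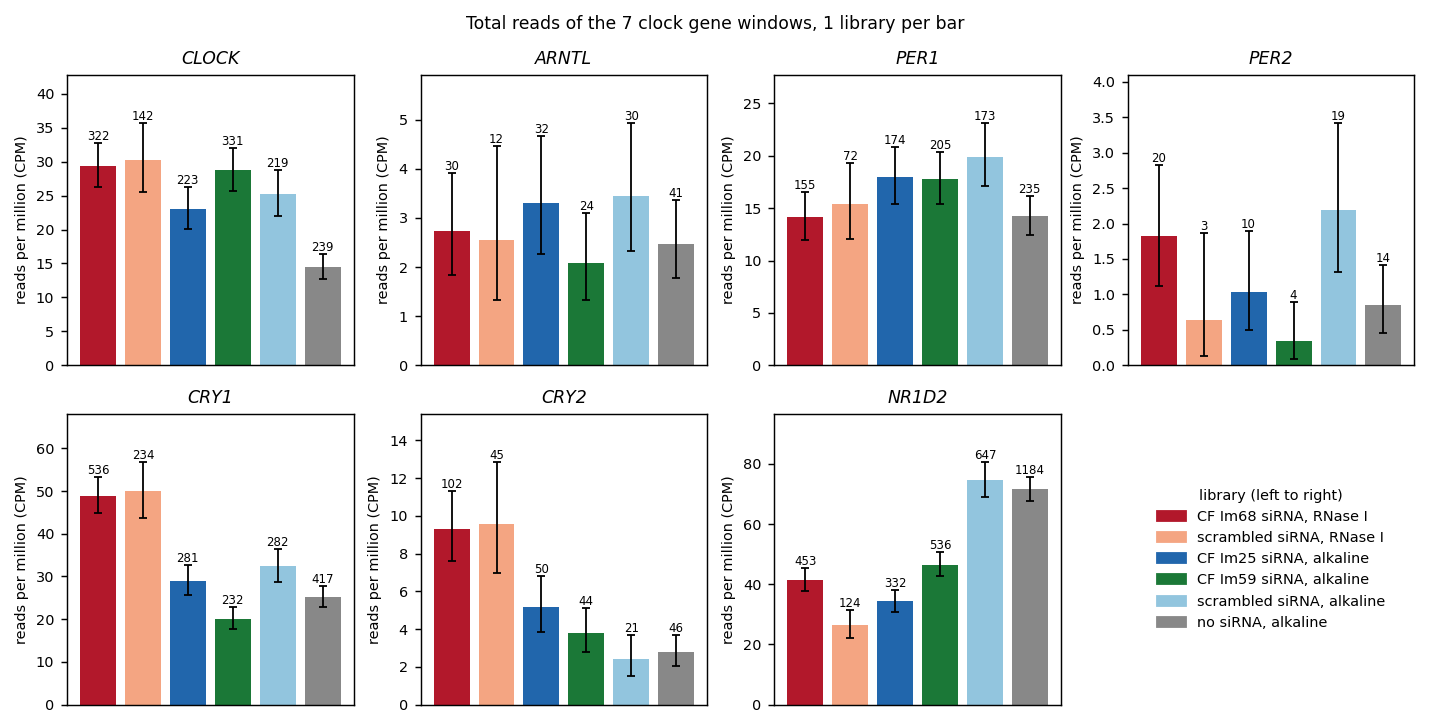
Total reads of each clock gene window in CPM, 1 bar per library, with exact 95% Poisson intervals of the read count and the read count above each bar. NR1D2 stands at 74.5 and 71.6 CPM in the scrambled siRNA and no siRNA alkaline libraries and below 50 CPM in the other 4, and CRY1 and CRY2 are highest in the RNase I libraries.

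NR1D2, a heme-binding nuclear receptor that represses transcription, was cleaved at 24019035 (proximal) and 24022107 (distal) on the plus strand of chromosome 3, 3072 nt apart. GENCODE transcripts NR1D2-205, listed as a processed transcript, and NR1D2-201, with 3199 nt after its stop codon, end 3075 nt apart. Their last 30 bases are shown, linked to the sites by spacing alone and with the poly(A) signal in capitals, because reads moved between these ends.
NR1D2-205 (proximal end): gacctttaagacAATAAAagattgtaggct
NR1D2-201 (distal end): gggaggggatAATAAAtatttctaaccaac
Both ends hold AATAAA, within the last 18 bases of NR1D2-205 and the last 20 of NR1D2-201. TGTA occurred 3 times in the last 100 bases of NR1D2-205 and 2 times in those of NR1D2-201.

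NR1D2 moved to its proximal site after CF Im68 siRNA. The proximal site had 294 of 352 reads at the pair after CF Im68 siRNA (83.5%), against 3 of 92 with scrambled siRNA (3.26%). Among alkaline libraries it had 36 of 255 reads after CF Im25 siRNA (14.1%), 5 of 466 after CF Im59 siRNA (1.07%), 3 of 553 with scrambled siRNA (0.542%) and 5 of 1091 without siRNA (0.458%). The proximal site was thus near 0 in every control library. The CF Im68 difference was 80.3 points (interval 73.0 to 84.4), the 1 call among 2 clock genes tested, where 24.4% of 5291 pairs were called proximal and 1.78% distal. Of the 5291 pairs, 18 had a larger rise. The proximal site held 64.9% of the window after CF Im68 siRNA and 0.422% to 10.8% in the other libraries. Its place in the pair thus rests mainly on the CF Im68 library, so this difference and its rank only describe NR1D2.

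After CF Im25 siRNA the NR1D2 share was 13.6 points above that with scrambled siRNA (interval 9.69 to 18.4) and 13.7 points above that without siRNA (interval 9.87 to 18.5), both short of 20 points. With sites of 12 nt on either side instead of 25 nt, the difference from scrambled siRNA was 4.28 points, and the highest nucleotide of the proximal site after CF Im25 siRNA, with 50% of its reads, lay 16 nt downstream of the site position. The CF Im59 siRNA difference from scrambled siRNA was 0.53 points (interval -0.677 to 1.99). The alkaline controls differed by 0.0842 points, scrambled siRNA minus no siRNA (interval -0.623 to 1.16), and the scrambled siRNA libraries by 2.72 points, RNase I minus alkaline (interval 0.334 to 8.62). The 3 control libraries thus lay between 0.458% and 3.26% at NR1D2.

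Both NR1D2 sites changed in CPM after CF Im68 siRNA. The proximal site had 26.8 CPM after CF Im68 siRNA and 0.640 CPM with scrambled siRNA (41.9-fold higher, interval 14.2 to 204, with 3 reads in the control). The distal site had 5.29 CPM after CF Im68 siRNA and 19.0 CPM with scrambled siRNA (3.59-fold lower, interval 2.55 to 5.08). After CF Im25 siRNA the proximal site had 3.72 CPM against 0.346 CPM with scrambled siRNA (10.8-fold higher, interval 3.40 to 54.7, again with 3 control reads). The distal site then had 22.6 CPM against 63.4 CPM (2.80-fold lower, interval 2.39 to 3.29). The distal site after CF Im59 siRNA had 39.98 CPM (1.58-fold lower than with scrambled siRNA, interval 1.40 to 1.80) and the proximal site 0.434 CPM.

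Total NR1D2 reads were lower after CF Im25 siRNA than in either alkaline control. They came to 34.3 CPM after CF Im25 siRNA, 46.5 CPM after CF Im59 siRNA, 74.5 CPM with scrambled siRNA and 71.6 CPM without siRNA. The CF Im25 library was 2.17-fold below scrambled siRNA (interval 1.90 to 2.49) and 2.09-fold below no siRNA (interval 1.84 to 2.36), both called lower. Among 17207 units tested against no siRNA, 9.86% were called higher and 10.3% lower. In the RNase I libraries NR1D2 had 41.3 CPM after CF Im68 siRNA and 26.5 CPM with scrambled siRNA (ratio 1.56, interval 1.28 to 1.92), not a 2-fold difference. Between scrambled siRNA libraries, RNase I was 2.82-fold below alkaline hydrolysis (interval 2.32 to 3.44), a call for 1 of 4 clock genes tested, where 23.8% of 14135 units were called higher and 34.8% lower. The mean read at a called NR1D2 site lay 2932 nt upstream of the distal site after CF Im68 siRNA and 1603 nt with scrambled siRNA, and 2025 nt after CF Im25 siRNA, 1282 nt after CF Im59 siRNA, 1010 nt with scrambled siRNA and 417 nt without siRNA. These means count the called site 21352 nt upstream, so they do not measure movement between the main pair alone. That site had 7 reads in each RNase I library. In the alkaline libraries it had 21 reads after CF Im25 siRNA, 29 after CF Im59 siRNA, 27 with scrambled siRNA and 21 without siRNA. The standard error from reads was 150 nt after CF Im68 siRNA and 553 nt with scrambled siRNA in the RNase I libraries.

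The calls of total reads were as follows over the 7 genes. A gene's total counts all reads of its window, while a unit counts reads at called sites only. The shares of units given beside the genes are therefore of a somewhat different measure. After CF Im25 siRNA, 1 of 5 tested genes was called higher (CRY2) and 1 lower (NR1D2), beside 13.1% of all units higher and 12.1% lower. Against no siRNA, 0 of 5 were higher and 1 was lower (NR1D2), beside 9.86% and 10.3% of units. After CF Im59 siRNA 0 of 4 were called, against 8.61% of units higher and 11.1% lower, and likewise 0 of 4 against no siRNA, where 4.94% of units were higher and 8.25% lower. None of the 5 tested passed after CF Im68 siRNA, against 11.2% of units higher and 6.96% lower, and between scrambled and no siRNA 0 of 4, against 4.3% higher and 4.29% lower. The median log2 ratio of the tested genes was -0.15 after CF Im25 siRNA, -0.42 after CF Im59 siRNA and -0.04 after CF Im68 siRNA, beside 0.00, -0.06 and 0.08 over all tested units. Against no siRNA the median was 0.34 after CF Im25 siRNA and -0.00088 after CF Im59 siRNA, beside 0.01 and -0.05 over all units, so the direction of the CF Im25 median turned with the control. Scaling by TMM would move every log2 ratio of the CF Im68 comparison and of RNase I over alkaline hydrolysis by 0.18, and that of scrambled over no siRNA by -0.11, so smaller differences than these have no settled direction.

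For the proximal share, the median change of the clock genes tested was 28.1 points after CF Im25 siRNA, 1.98 points after CF Im59 siRNA and 44.4 points after CF Im68 siRNA. Over all tested pairs the medians were 4.19, -1.19 and 5.51 points. Against no siRNA the clock median was 9.48 points after CF Im25 siRNA and 1.98 points after CF Im59 siRNA, beside 5.48 and -0.06 points over all pairs. The clock medians rest on 2 or 3 genes each, PER1 among them.

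**Figure D4:**
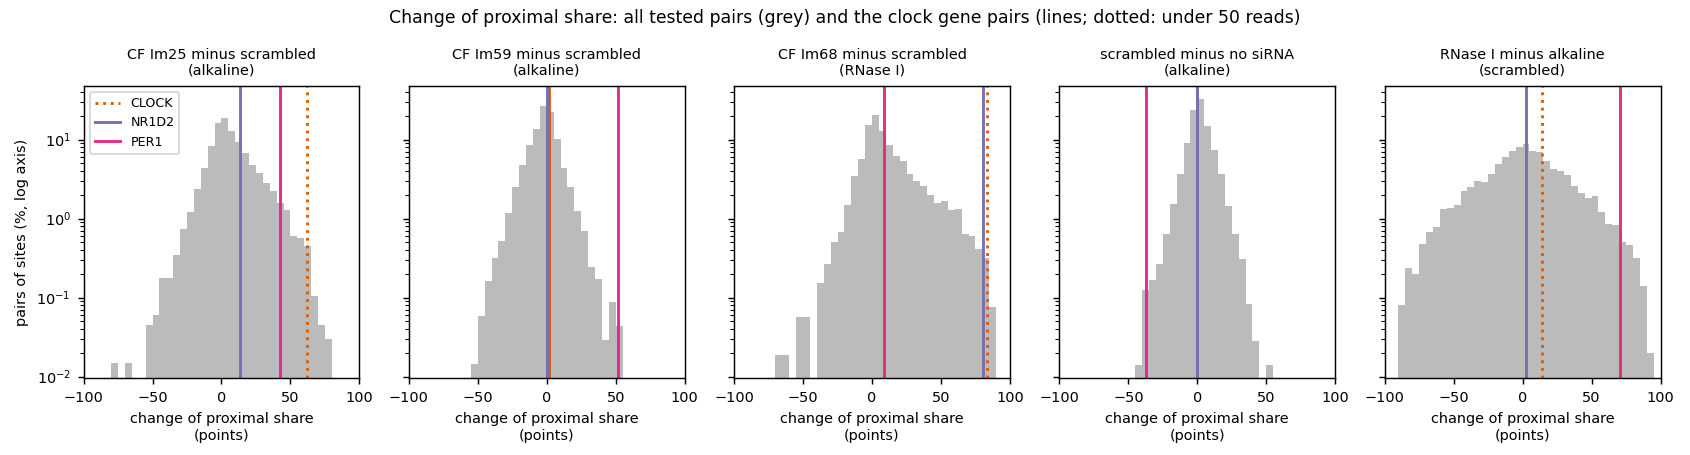
Change of the proximal share in percentage points for all tested pairs of the series (grey, share of pairs on a log axis, bins of 5 points) and for CLOCK, NR1D2 and PER1 (vertical lines, dotted where a library had under 50 reads), in the 5 comparisons. PER1 lies near the right edge for CF Im59 siRNA (51.3 points) and near the left edge for scrambled minus no siRNA (-37.4 points), and NR1D2 near the right edge for CF Im68 siRNA (80.3 points).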

How the data were processed

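The deposited files hold counts of read 3' ends for each nucleotide and strand, unscaled, 1 file per library. The submitters' processing notes name hg19 and GRCh37. For the aligner, the filters and any removal of duplicate or internally primed reads, nothing was given in the sources used here. Sites were called over the 6 libraries at equal weight, as the highest remaining position with 25 nt on either side, and kept at a mean CPM of at least 1. Sites with gaps of up to 5000 nt on a strand were joined into 28114 units, and 8999 pairs of sites, each with at least 5% of a unit, gave the background. Intervals are Newcombe for differences of shares, Clopper-Pearson for shares and exact conditional binomial for ratios. Python 3.11.15, SciPy 1.17.1 and edgeR 4.0.16 (TMM factors only) were used, and the calculations were tested on simulated data.

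The members and lists were chosen with earlier results of these data known. The rule for naming was to describe all 7 genes, every site with at least 5% of its window, and the 3 pairs most like PER1. Other clock genes were not analysed here. GENCODE release 29 and RefSeq GRCh38.p14 matched all 7 genes by symbol (ARNTL as BMAL1 in RefSeq) and gave names, neighbours, distances and end sequences, and no coordinate. No group holds more than 1 library, so no test across replicates was made.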

Additional observations from a re-analysis of the deposited data

How the results depend on the processing

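The number of clock genes with a shifted proximal share after CF Im25 siRNA (1) was 2 with all upstream sites counted, 2 at a minimum of 20 reads, 2 at 10 points and 0 with no siRNA as the control. After CF Im59 siRNA (1) it was 0 with no siRNA as the control. After CF Im68 siRNA (1) it was 2 at 20 reads and 0 at 100 reads, and between scrambled siRNA libraries of RNase I and alkaline hydrolysis (1) it was 2 with all upstream sites counted and 0 at 100 reads. At 20 reads CLOCK was the gene added after CF Im25 and CF Im68 siRNA. The number with a changed total after CF Im25 siRNA (2) was 1 with libraries thinned to the smallest, 1 at called sites only and 1 against no siRNA, with NR1D2 called each time. CRY2 was then not called, for having under 50 reads when thinned or at called sites only (log2 ratio 0.82 and 1.30, against 1.10), and for a ratio of 1.86 against no siRNA. After CF Im59 siRNA (0) it was 1 without a minimum of reads and 2 at 1.5-fold. After CF Im68 siRNA (0) it was 1 at 1.5-fold. Between scrambled and no siRNA (0) it was 1 when thinned, 1 without a minimum and 1 at 1.5-fold. Between scrambled siRNA libraries of RNase I and alkaline hydrolysis (1) it was 3 without a minimum and 2 at 1.5-fold. The cause was not tested where the alternative's own minimum or size does not show it. Apart from no siRNA as the control, the shares of all pairs and units called were not computed under these settings. The counts here thus show how the rule acts on these genes and are not a result about clock genes. For single genes, each value was compared under each setting in turn. There, 59 of 66 changes of proximal share and 137 of 149 ratios of totals stayed inside the counting interval of the reported value. Of the mean distances, 13 of 18 stayed within 2 standard errors from reads. The same value is counted again under each setting, so these are not separate checks.

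No paired analysis was possible because each group held 1 library. For the same reason no replicate could be left out. Depth limits ARNTL, PER2 and CRY2 most, with 70 reads in all for PER2, and the RNase I control, which had 21 reads at the main CLOCK sites. Counting all upstream sites took the CLOCK differences to 19.0 points after CF Im68 siRNA, 28.3 after CF Im25 siRNA and -11.5 after CF Im59 siRNA, and a site half-width of 12 nt took NR1D2 after CF Im25 siRNA to 4.28 points. The PER1 calls after CF Im25 and CF Im59 siRNA rest on the scrambled siRNA library.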

Other observations

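The strand opposite to ARNTL carried more reads than ARNTL itself in every library. Within the ARNTL window it held 188 reads after CF Im68 siRNA and 64 with scrambled siRNA in the RNase I libraries, and 92 after CF Im25 siRNA, 108 after CF Im59 siRNA, 86 with scrambled siRNA and 140 without siRNA in the alkaline libraries. In CPM the strand stood at 17.2 after CF Im68 siRNA and 13.7 with scrambled siRNA, and at 9.51 after CF Im25 siRNA, 9.37 after CF Im59 siRNA, 9.91 with scrambled siRNA and 8.46 without siRNA. There were 2 called sites on that strand. BTBD10 is the next gene downstream of ARNTL in the annotation and lies on the opposite strand, and whether these reads belong to it was not tested. The opposite strand of the PER1 window held 0 or 1 read in each library.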
